A study of Mus musculus with 4 samples.

Results

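The collagen genes of the mouse encode the chains of the collagens, the main structural proteins of the extracellular matrix. Members were taken as the protein-coding genes of the GENCODE M21 annotation (build mm10) whose symbol is Col, a number, the letter a and a number. The annotation holds 44 such genes, of which 32 are among the 21840 genes of the table. The other 12 (Col3a1, Col5a2, Col6a6, Col9a1, Col9a2, Col10a1, Col11a1, Col13a1, Col19a1, Col25a1, Col26a1 and Col28a1) are not analysed here. A member was called expressed at a mean of 10 or more normalized counts over the 4 libraries, which 21 of the 32 reached. The cells were 4T1, a mouse mammary carcinoma line labelled as epithelial and wild type, all grown in RPMI medium with 10% FBS, penicillin and streptomycin. One group received PBS and the other recombinant IL-17A (rIL17), with 2 libraries of RNA sequencing in each; dose and duration of treatment are not given in these sources. The comparison asks how the cytokine changes the RNA of the tumor cells. The labels do not state that replicates were separate cultures; the p-values therefore reflect only how far these libraries spread, which may be technical.

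Collagen chains share a repeat of glycine and a pair of other residues, by which chains wind around each other into a rope-like helix. Fibrillar collagens such as types I, III and V form the fibrils of connective tissue, type IV forms the sheet of the basement membrane under epithelia, and type VII anchors that sheet to the fibrils beneath. In the endoplasmic reticulum prolines and lysines of the chains are hydroxylated and the helix is held by chaperones; outside the cell the ends are cut off and lysyl oxidases crosslink the molecules. IL-17A, secreted by Th17 and other lymphoid cells, signals in epithelium and raises, among other genes, several matrix proteases. In tumors much of the fibrillar collagen is made by fibroblasts.

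The libraries held 17413365 to 18005398 normalized counts in all. A value of 0 allows up to about 3 counts in a library of this depth, for counting error only. All 7 epithelial markers were above the mean of 10, led by the keratin gene Krt8, with 29749 and 32665 normalized counts in PBS and 25498 and 26467 in rIL17; the cadherin gene Cdh1 (139 to 208) and Epcam (76.6 to 135) were lower. The summed epithelial list was 50933 and 54832 in PBS and 43274 and 45201 in rIL17, so the groups did not overlap. Most of this sum was Krt8 and the keratin gene Krt18 (19346 and 20159 in PBS, 15966 and 16720 in rIL17). The limma adjusted p was 0.161 for Krt8 and 0.113 for Krt18. At an adjusted p below 0.05, 0 of the 7 markers were called, against 0.764% of all genes tested. In 5 of the 7 markers each rIL17 library was below each PBS library, against 24.7% of all genes tested. The groups overlapped for Krt19 (log2 difference 0.05) and Epcam (-0.02). Of 7 fibroblast markers 5 had a row and 3 a mean of 10 or more. Nearly all of their sum (2395 and 2517 in PBS, 2943 and 2937 in rIL17) was the growth factor receptor gene Pdgfra. The log2 difference of Pdgfra was 0.26 (limma adjusted p = 0.152), and 0.32 after correction for GC content (limma adjusted p = 0.0317). Postn was at 1.96 and 1.99 in PBS and at 0 in both rIL17 libraries, and Fap did not exceed 2.01 in any library. The proteoglycan gene Dcn was at 26.5 and 17.9 in PBS and 62.3 and 46.1 in rIL17 (log2 difference 1.26, limma adjusted p = 0.152; 0.57 after correction for GC content). Pdgfrb, a related receptor gene, went the other way, with 36.3 and 33.8 in PBS and 24.1 and 26.1 in rIL17 (-0.47, limma adjusted p = 0.448). The 2 leukocyte markers with a row summed to between 1 and 4 counts per library, with Ptprc at 0 in both PBS libraries, and the 3 endothelial markers to between 6.9 and 8. The part of these markers in the collagen values was not tested.

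4T1 cells expressed collagen genes at 2 separate levels. There were 9 members with means between 1902 and 15972 normalized counts, and the next member, Col4a6, had a mean of 62.6. These 9 held 99.2% to 99.4% of all collagen counts in each library. A further 12 members had means of 11.2 to 62.6, and 11 lay between 0.499 and 5.97. Around the threshold of 10, Col6a3 was just inside with a mean of 11.2 and Col15a1 just outside with 5.97. All collagen genes together made up 0.366% and 0.364% of the counts with PBS and 0.335% and 0.346% with rIL17.

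**Figure D1:**
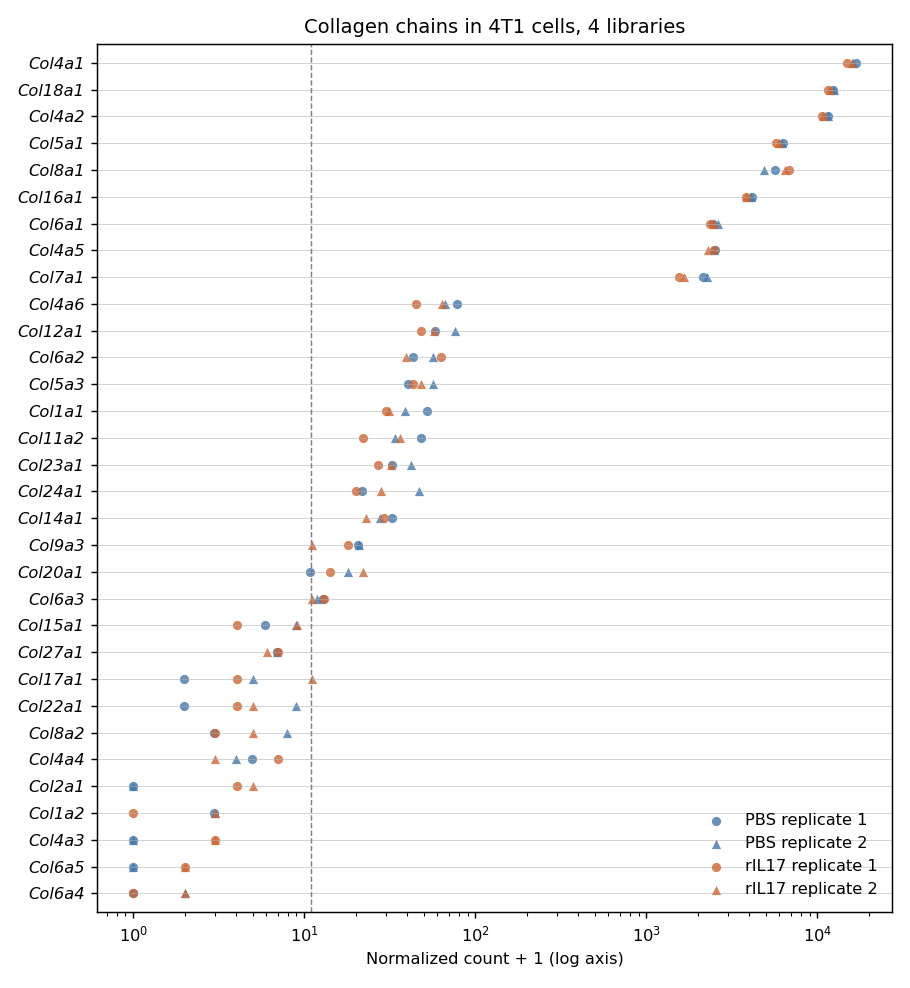
Normalized count + 1 (log axis) of the 32 collagen genes in each of the 4 libraries; circles are replicate 1 and triangles replicate 2, blue PBS and orange rIL17, and the dashed line marks a count of 10. The 9 genes from Col4a1 to Col7a1 lie above 1000, and no gene has a mean between 62.6 and 1902.

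The most abundant class was the basement membrane. Col4a1 and Col4a2, whose chains form the type IV molecule found in basement membranes throughout the body, had means of 15972 and 11116 normalized counts, and type IV genes held 46.7% to 48.1% of the collagen counts. Per kilobase of exon, which allows levels of different genes to be compared, Col4a1 stood at 2140 and ranked 374th among all 21840 genes, and Col4a2 stood at 1679. Col18a1, encoding the basement membrane collagen from which the fragment endostatin is released, was between them at 1716 per kilobase (mean 12045 normalized counts). Col4a5, a chain of basement membranes of kidney and other epithelia, reached 365 per kilobase, and its usual partner Col4a6 reached 7.86. Col4a3 and Col4a4, the chains that join Col4a5 in the kidney glomerulus, did not exceed 2.01 and 6.03 normalized counts in any library.

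Of the 8 fibrillar chains with a row only Col5a1 was abundant. Col5a1, a chain of the type V collagen that starts and limits fibrils, had a mean of 6035 normalized counts (711 per kilobase). Col1a1, a chain of type I collagen, the main collagen of connective tissue, measured 51.0 and 37.8 normalized counts with PBS and 29.2 and 30.1 with rIL17. Its partner Col1a2 measured 1.96 and 1.99 with PBS and 0 and 2.01 with rIL17. Col5a3, Col11a2 and Col24a1 were expressed at means of 28.1 to 46.1. The cartilage chain gene Col2a1 was listed at 0 in each PBS library and measured 3.02 and 4.01 with rIL17, and Col27a1 had a mean of 5.72. Low counts of this kind cannot show a difference at this depth.

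The other abundant members came from 4 different classes. Col8a1, a short-chain collagen of hexagonal networks in cornea and vessel wall, had 758 per kilobase, above Col5a1. Col16a1, which belongs to the fibril-associated collagens, had 588 and Col6a1, of the beaded filaments, 566. Col7a1, the single chain of the anchoring fibril under the epidermis and other stratified epithelia, had the longest exon length of the 9, at 10287 bases, and 185 per kilobase. Fibril-associated Col12a1, Col14a1, Col9a3 and Col20a1 had means of 15.2 to 58.7 normalized counts, and the transmembrane collagen gene Col23a1 had 32.3. Col17a1, the transmembrane collagen of hemidesmosomes, which join epithelial cells to the basement membrane, ranged from 0.981 to 10.0 normalized counts, and Col22a1 and Col8a2 did not exceed 7.96.

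Chains of 1 collagen type differed in RNA level. Per kilobase, Col4a2 stood at 77.2% and 80.8% of Col4a1 with PBS and at 79.8% and 76.4% with rIL17, and the protein takes these chains in a fixed proportion of more Col4a1 than Col4a2. Col4a5 and Col4a6, which form a type IV molecule of their own, were lower. Col4a5 was at 17.1% ± 1.07 of Col4a1 and Col4a6 at 0.365% ± 0.0641 (SD over the 4 libraries). Col6a2 was at 1.06% ± 0.261 of Col6a1 and Col6a3 at 0.166% ± 0.0190, although the type VI protein is assembled from all of these chains. Col5a3 and Col11a2 were at 0.953% ± 0.146 and 0.691% ± 0.194 of Col5a1. For types IV, V and VI the ranges of the PBS and the rIL17 libraries overlapped for every one of these chains except Col4a6 (0.430% and 0.379% in PBS, 0.276% and 0.374% in rIL17). The cause of these inequalities was not tested, and an RNA level does not give the amount of protein.

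Neighbouring genes differed in the same way. Col4a1 (chr8:11198423-11312826, minus strand) and Col4a2 (chr8:11312805-11449287, plus strand) start head to head, with an overlap of 22 bases, and differed 1.27-fold per kilobase. Col4a6 (chrX:141165403-141474076, minus strand) and Col4a5 (chrX:141475385-141689234, plus strand) also start head to head, 1308 bases apart, and differed 46.4-fold. Col6a1 and Col6a2 follow each other on the minus strand of chromosome 10 and differed 95-fold. Because the strand setting of the counting is not given, reads in the overlap of Col4a1 and Col4a2, or where Col18a1 overlaps Slc19a1 (mean 696 normalized counts) on the opposite strand, cannot be assigned with certainty. Col20a1 overlaps the gene BX649560.1 (mean 92.1) on the same strand, so its values are uncertain.

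The sequences before 4 of these genes are shown, Col4a5 and Col4a6 as the head-to-head pair of unequal RNA, and Col7a1 and Col8a1 as the abundant members with the lowest and the highest log2 difference between the groups. They are RefSeq promoter sequences on GRCm38.p6 (the build also named mm10), 5′ to 3′ on the strand of the gene, without the bases that any annotated exon covers. Capitals mark matches on either strand to 6 motifs: the GC box GGGCGG, the CCAAT box CCAAT, the TATA box TATAAA, the AP-1 motif TGANTCA, the C/EBP motif TTGCNNAA and the kB motif (GGGA, any 3 bases, TCC). The stretches are chrX:141475169-141475384 for Col4a5 (plus strand), chrX:141474077-141474326 for Col4a6 (minus), chr9:108953336-108953585 for Col7a1 (plus) and chr16:57754738-57754987 for Col8a1 (minus).
Col4a5: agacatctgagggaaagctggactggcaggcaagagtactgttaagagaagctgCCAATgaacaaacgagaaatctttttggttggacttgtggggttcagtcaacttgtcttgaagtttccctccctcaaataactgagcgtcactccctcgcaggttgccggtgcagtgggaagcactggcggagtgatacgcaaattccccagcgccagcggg
Col4a6: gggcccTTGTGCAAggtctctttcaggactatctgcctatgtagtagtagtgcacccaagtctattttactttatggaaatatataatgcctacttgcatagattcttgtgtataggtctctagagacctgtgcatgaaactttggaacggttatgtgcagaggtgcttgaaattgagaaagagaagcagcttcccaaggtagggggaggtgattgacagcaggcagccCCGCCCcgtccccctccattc
Col7a1: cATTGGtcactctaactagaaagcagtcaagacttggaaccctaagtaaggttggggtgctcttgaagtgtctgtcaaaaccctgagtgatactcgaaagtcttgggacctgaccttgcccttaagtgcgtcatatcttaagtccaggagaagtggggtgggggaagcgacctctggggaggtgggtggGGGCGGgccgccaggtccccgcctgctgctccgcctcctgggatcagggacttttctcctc
Col8a1: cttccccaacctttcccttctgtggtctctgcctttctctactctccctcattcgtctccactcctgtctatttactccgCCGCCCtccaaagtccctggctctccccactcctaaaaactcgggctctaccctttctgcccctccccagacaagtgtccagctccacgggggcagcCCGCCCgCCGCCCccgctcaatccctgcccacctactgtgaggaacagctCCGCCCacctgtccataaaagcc
The Col4a5 stretch held a CCAAT box, and the Col4a6 stretch a GC box and a C/EBP match on the strand opposite to the gene. The Col4a5 stretch has 216 bases and ends 34 bases before the RefSeq start. In the window of 250 bases before to 50 after the start, Col4a5 and Col4a6 each had 1 GC box. The Col7a1 stretch held a CCAAT box at its far end and a GC box, and the Col8a1 stretch 4 GC boxes. Over whole windows of 250 bases before to 50 after the start, the 9 abundant members had 10 windows, of which 8 held a GC box, 6 a CCAAT box, 1 (Col6a1) an AP-1 match, and 0 a TATA box, a C/EBP or a kB match. Of all 32851 RefSeq windows of this length 35.7%, 37.4%, 7.81%, 13.6%, 10.8% and 4.59% held these motifs in the same order. Each motif was searched on its own, so a base could count for more than 1. The windows of Col4a1 and Col4a2 share 78 bases, so a match there counts in both. A match describes letters and is no evidence of binding, and the absence of one says only that these letters are not in the window.

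In the comparison of rIL17 with PBS, the mean of Col7a1 was lower (-27.2%) and that of Col8a1 higher (27.0%). Means of the other 7 abundant collagen genes were slightly lower (-7.92% to -4.58%). With a correction for GC content the log2 fold changes of these 7 turned to 0.01 to 0.06. The same correction moved the median of all genes tested from -0.002 to 0.05, so the turn in sign is not particular to these genes. None of the 21 expressed members passed in limma over all 13479 genes tested (0 at an adjusted p below 0.05), against 0.764% of all genes (103 genes; 80 higher, 0.594%, and 23 lower, 0.171%). At an unadjusted p below 0.05 there were 2 members, Col7a1 and Col8a1, against 16% of all genes. In 12 of 21 members each rIL17 library was below each PBS library, against 24.7% of all genes tested, and in 1 member, Col8a1, both lay above, against 25.4%. An exact permutation test of 2 libraries against 2 cannot give a two-sided p below 0.333, so none was run. In these bulk cultures a change in RNA per cell and a change in the make-up of the culture cannot be told apart.

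Col7a1 (chr9:108953586-108984875, plus strand) measured 2154 and 2250 normalized counts with PBS and 1551 and 1655 with rIL17. Both rIL17 libraries were well below both PBS libraries, and the gap between the groups was several times the distance between replicates. The means were 2202 ± 68.4 and 1603 ± 73.3 (SD, n = 2 per group), a difference of -27.2%. The log2 fold change was -0.46 (SE 0.07, 95% interval -0.63 to -0.29), with a limma adjusted p = 0.0550, just short of the threshold. Col7a1 passed with upper-quartile scaling (limma adjusted p = 0.0349), with limma-voom (0.0307), with a correction for GC content (log2 fold change -0.33, adjusted p = 0.0423), and without PBS replicate 1 (0.00344) or PBS replicate 2 (0.0367). It did not pass with genes of lower count included (adjusted p = 0.369), nor without rIL17 replicate 1 (0.705) or rIL17 replicate 2 (0.358). Over all genes the share called was 1.27% with upper-quartile scaling, 1.47% with limma-voom, 2.71% with the GC correction, and 16% and 1.98% without PBS replicate 1 and 2. It was 0% with genes of lower count included, and 0.00742% and 0.0297% without rIL17 replicate 1 and 2.

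Col8a1 (chr16:57624258-57754737, minus strand) measured 5614 and 4848 normalized counts with PBS and 6859 and 6431 with rIL17. It was the only abundant member with both rIL17 libraries above both PBS libraries, and its PBS libraries lay farther apart than its rIL17 libraries. The means were 5231 ± 542 and 6645 ± 303 (SD, n = 2), a difference of 27.0%, with a log2 fold change of 0.35 (SE 0.08, 95% interval 0.14 to 0.55). It did not pass (limma adjusted p = 0.144). It passed with the GC correction (0.38, limma adjusted p = 0.0488) and without PBS replicate 1 (0.45, adjusted p = 0.00217), and without PBS replicate 2 the log2 fold change was 0.24 (adjusted p = 0.124). It did not pass with upper-quartile scaling (limma adjusted p = 0.137), with limma-voom (0.106), with genes of lower count included (0.373), or without rIL17 replicate 1 (0.890) or 2 (0.478).

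**Figure D2:**
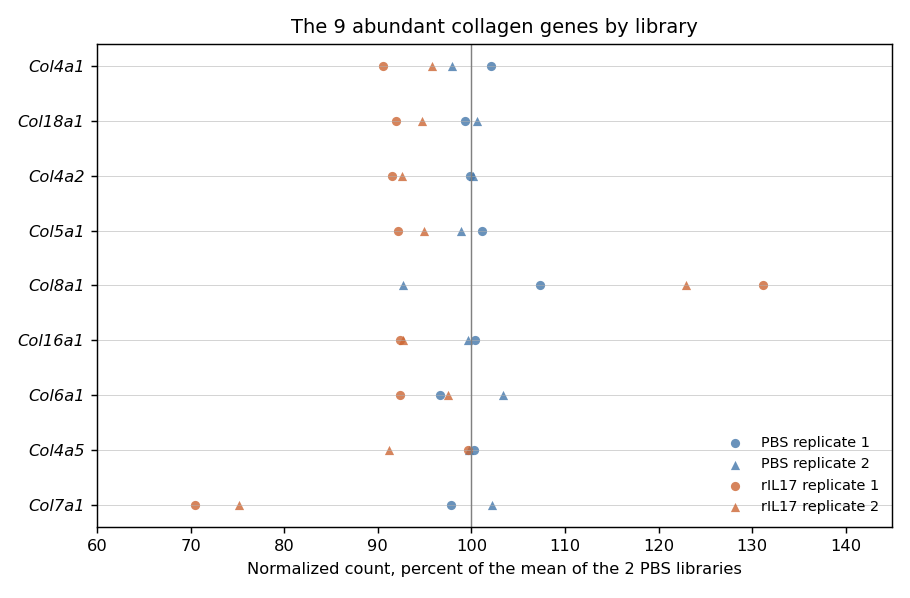
Normalized count of the 9 abundant collagen genes in each library, as percent of the mean of the 2 PBS libraries; blue is PBS and orange rIL17, circles are replicate 1 and triangles replicate 2. Col7a1 in rIL17 stands apart to the left and Col8a1 to the right, while the rIL17 values of the other 7 genes lie within 10% of the PBS mean.

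The other 7 abundant genes had log2 fold changes of -0.12 to -0.07, and none passed in limma. Col4a1 measured 16880 and 16194 normalized counts with PBS and 14979 and 15834 with rIL17 (log2 fold change -0.10, SE 0.06). The rIL17 values were lower, but the nearest PBS and rIL17 libraries were closer to each other than the 2 rIL17 libraries were. Col4a2 measured 11553 and 11597 with PBS and 10596 and 10720 with rIL17, a difference of -7.92% with replicates close together (log2 fold change -0.12, 95% interval -0.25 to 0.01, limma adjusted p = 0.347). Col18a1 measured 12381 and 12543 with PBS and 11455 and 11799 with rIL17 (-0.10, SE 0.06).

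Col16a1 showed close replicates, with 4141 and 4110 normalized counts in PBS and 3809 and 3825 in rIL17 (log2 fold change -0.11, 95% interval -0.25 to 0.02). Col5a1 measured 6305 and 6168 with PBS and 5745 and 5923 with rIL17 (-0.10, SE 0.06). In both genes the groups did not overlap, with differences of -7.48% for Col16a1 and -6.45% for Col5a1. Col4a5 measured 2514 and 2501 with PBS and 2497 and 2288 with rIL17 (log2 fold change -0.07, adjusted p = 0.666), with 1 rIL17 library next to the PBS libraries. Col6a1 measured 2458 and 2627 with PBS and 2347 and 2478 with rIL17 (-0.08, limma adjusted p = 0.633), and its groups overlapped.

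Of the 9 abundant members 8 had a log2 fold change below 0, against 54.8% of the 4291 tested genes with a mean of 1000 or more, and in 7 of 9 each rIL17 library was below each PBS library, against 30.1%. Both lay above in 1 of 9, against 24.9%. The median log2 fold change was -0.10 for the 9 members and -0.01 for those 4291 genes. Whether collagen genes differ from other genes was not tested.

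**Figure D3:**
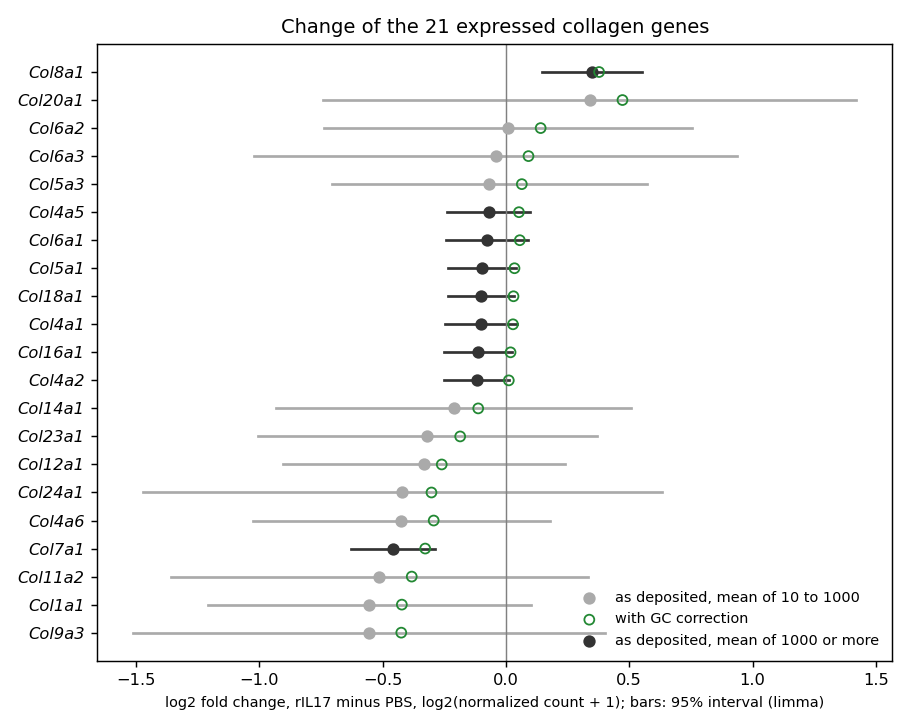
Log2 fold change (rIL17 minus PBS, on the log2(normalized count + 1) scale) of the 21 expressed collagen genes, with 95% intervals from limma; dark points have a mean of 1000 or more, grey points 10 to 1000, and open green circles give the value after the GC correction. The intervals of Col7a1 and Col8a1 alone leave out 0, and the correction moves the other 7 dark points from below 0 to above it.

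The 12 members with means of 10 to 1000 had log2 fold changes of -0.56 to 0.34, with a median of -0.33, and wide intervals. Col4a6, the highest of them, measured 77.5 and 65.6 normalized counts with PBS and 44.2 and 63.2 with rIL17 (log2 fold change -0.42, 95% interval -1.03 to 0.18). The higher rIL17 library was close to the lower PBS library. The log2 fold changes were -0.55 for Col1a1 (SE 0.27, limma adjusted p = 0.379), -0.56 for Col9a3, -0.51 for Col11a2, -0.42 for Col24a1, -0.33 for Col12a1, -0.32 for Col23a1 and -0.21 for Col14a1. Those of Col5a3 (-0.07), Col6a3 (-0.04) and Col6a2 (0.01) were near 0, and Col20a1 had 0.34 (SE 0.45). In 5 of the 12 each rIL17 library was below each PBS library, against 22.2% of the 9188 tested genes with a mean of 10 to 1000, and in 0 both lay above, against 25.6%. The median log2 fold change of those 9188 genes was 0.01. Fold changes on this scale understate the change of genes with low counts.

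Transcript GC content moved with the difference between the groups. Over all tested genes the median log2 fold change was 0.55 at a GC content of 35% to 40%, 0.19 at 40% to 45%, -0.002 at 45% to 50% and -0.06 at 60% to 65%. The PBS libraries themselves differed along the same axis, with PBS replicate 2 minus PBS replicate 1 at -0.47 in the lowest of these bins and 0.08 in the highest. Expressed collagen transcripts had a median GC content of 56.7%, against 49.7% for all genes tested, and none lay below 46.8%. Col8a1 has the lowest GC content of the 21, 46.8%, and Col7a1 has 61.6%; both lay away from the median of all genes at their GC content, in opposite directions.

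With each library's log2 values corrected for GC content, the log2 fold changes of Col7a1 (-0.33) and Col8a1 (0.38) kept their direction. Those of the other 7 abundant genes turned to 0.01 to 0.06. Among all tested genes with a mean of 1000 or more, the share below 0 went from 54.8% to 30.1%. The number of expressed members below 0 went from 18 of 21 to 9 of 21, while the share over all genes tested went from 50.4% to 37.1% and the median of all genes from -0.002 to 0.05. The sign of the small differences of Col4a1, Col4a2, Col18a1, Col5a1, Col16a1, Col6a1 and Col4a5 therefore depends on this correction, which also raised the median of all genes.

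**Figure D4:**
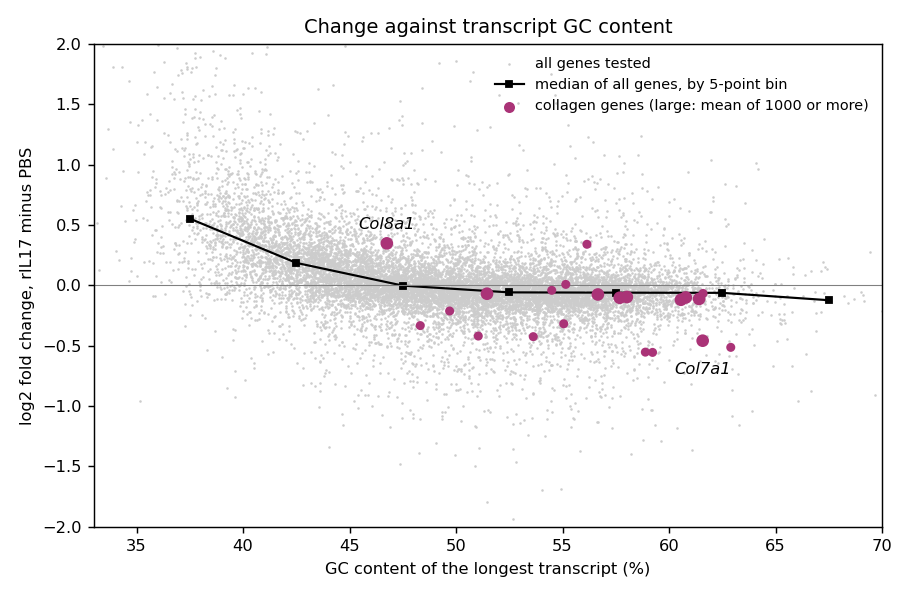
Log2 fold change (rIL17 minus PBS) against GC content of the longest transcript (%), for all genes tested (grey), collagen genes (purple, large where the mean is 1000 or more) and the median of all genes in bins of 5 percentage points (black). The 84 tested genes beyond the axes are not drawn. Col8a1 and Col7a1 lie above and below the line of medians, and the other large points lie close to it.

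Genes that make and process collagen chains showed no call. Of 36 genes on this list 32 had a row and 28 were tested, with 0 called in limma, against 0.764% of all genes. At an unadjusted p below 0.05 there were 5 of the 28, near the 16% of all genes; 9 were higher and 19 lower, where 50.4% of all genes were lower, with a median log2 fold change of -0.03, against -0.002 for all genes tested. In 10 of the 28 each rIL17 library was below each PBS library and in 5 above, against 24.7% and 25.4% of all genes. Serpinh1, the collagen chaperone HSP47, measured 24357 and 25887 normalized counts with PBS and 24152 and 24803 with rIL17 (log2 fold change -0.04, limma adjusted p = 0.807). P4hb, the shared subunit of prolyl 4-hydroxylase, had -0.02, and P4ha1, its catalytic subunit, had 0.11 (adjusted p = 0.400).

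P3h4, which takes part in hydroxylating lysines of the chains, had -0.35 (limma adjusted p = 0.320), and Plod2, a lysyl hydroxylase, had 0.25 (adjusted p = 0.420). The 4 genes with the smallest p on the list act outside the cell, and all were lower in rIL17 without passing. Loxl3, a lysyl oxidase that crosslinks collagen, measured 1613 and 1813 normalized counts with PBS and 1247 and 1330 with rIL17 (log2 fold change -0.41, SE 0.08, limma adjusted p = 0.105). Bmp1, the protease that removes the C-terminal end of procollagens and also acts on type VII, had -0.23 (SE 0.06, limma adjusted p = 0.163). Pcolce, the enhancer of that protease, had -0.22 and the lysyl oxidase gene Loxl4 had -0.19. In each of these 4, chosen for their p, the rIL17 libraries were below the PBS libraries without overlap. With the GC correction Loxl3 was at -0.28 (limma adjusted p = 0.0756), Bmp1 at -0.10, Pcolce at -0.08 and Loxl4 at -0.06. Lox, the lysyl oxidase itself, was at 0 in 3 libraries and at 2.01 in rIL17 replicate 2.

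Of 10 receptors for collagen 7 were tested, with log2 fold changes of -0.22 to 0.13. The count of 0 calls among 7 genes says little where 0.764% of all genes were called. Ddr2, a tyrosine kinase receptor for fibrillar collagens, measured 8697 and 7325 normalized counts with PBS and 8513 and 8267 with rIL17 (0.07, limma adjusted p = 0.731), and Itgb1, the shared chain of the collagen-binding integrins, had 0.06. Their groups overlapped. Of 9 degradation genes 6 were tested, and 2 rose and 0 fell in limma, where 0.594% of all genes rose and 0.171% fell. Mmp13, a collagenase that cuts fibrillar collagen, measured 442 and 295 with PBS and 1589 and 1402 with rIL17 (log2 fold change 2.04, SE 0.19, limma adjusted p = 0.0145). Mmp9, a gelatinase that also cuts type IV collagen, measured 7216 and 6733 with PBS and 13200 and 11988 with rIL17 (0.85, SE 0.07, limma adjusted p = 0.0115).

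Both protease genes were far above the PBS libraries in each rIL17 library. Mmp13 and Mmp9 passed with upper-quartile scaling (limma adjusted p = 0.00504 and 0.00563) and with limma-voom (0.00337 for each). The same held with the GC correction (limma adjusted p = 0.000331 and 0.00237). Over all genes the share called in these settings was 1.27%, 1.47% and 2.71%. They did not pass without rIL17 replicate 1 (limma adjusted p = 0.276 for each) or rIL17 replicate 2 (0.159 for each), nor with genes of lower count included (0.369 for Mmp13 and 0.337 for Mmp9). Pepd, the peptidase that frees proline from collagen fragments, had -0.22 (adjusted p = 0.280), and Mmp14, a membrane-bound collagenase, measured 5051 and 5017 with PBS and 4496 and 4682 with rIL17 (-0.13, limma adjusted p = 0.332).

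**Figure D5:**
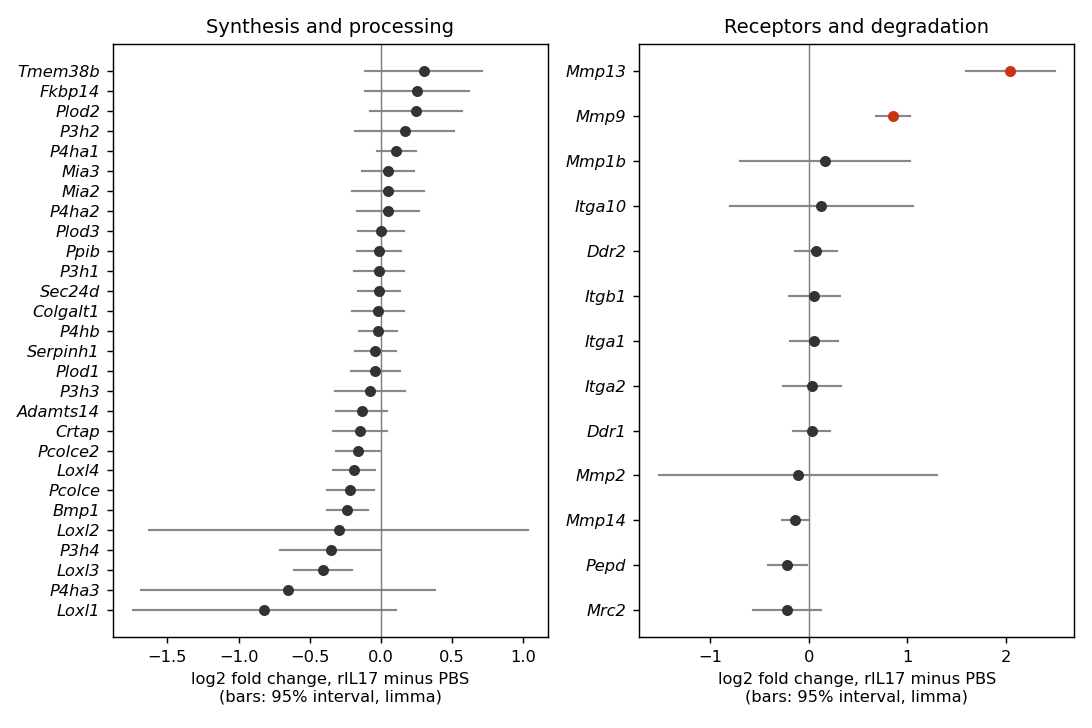
Log2 fold change (rIL17 minus PBS) with 95% intervals from limma for the tested genes of collagen synthesis and processing (left, 28 genes) and for collagen receptors and degradation (right, 13 genes); red marks an adjusted p below 0.05. Mmp13 and Mmp9 are the red points.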

How the data were processed

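The deposited table gives 1 value per gene and library. Per the submitters' processing notes, the tools were HISAT2 2.0.5, featureCounts 1.5.0-p3 and CASAVA, on build mm10; per the labels' protocols the kit was directional. Not given in the sources used here are the annotation release, the strand setting and the tool behind the scaling. The deposited values are a normalized signal: in each library all (100%, tolerance 0.001) were whole multiples of 1 step between 0.981 and 1.005, as counts divided by 1 factor per library are. They are called normalized counts. Of the methods made for raw counts only limma-voom was applied, and it was run on these normalized values.

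Genes with a mean of at least 10 were tested with limma 3.58.1 (R 4.3.3) with a mean-variance trend on log2(normalized count + 1), treatment alone in the model and p-values adjusted by Benjamini-Hochberg (threshold 0.05). The fit was checked on simulated data. The minimum of 10 was chosen because members count as expressed there. GENCODE M21 gave symbols for 21833 of 21840 rows, lengths (union of exons) and GC content (longest transcript, 99.9% of tested genes; loess, span 0.5). RefSeq gave promoter windows for 25 of the 44 members. The members, lists and tests were chosen with earlier results of these data known. Named genes are every expressed member, with values in each library for those called and for the 10 highest per kilobase. Of the other lists they are the genes called and up to 4 with the smallest p. Other genes named (markers, Serpinh1, P4hb, P4ha1, P3h4, Plod2, Lox, Ddr2, Itgb1, and Col1a1, Col1a2 and Col2a1 by library) were added with their values in view. Alternatives tried were scaling, filter, pseudocount, GC correction, a replicate block, leaving out each library, a threshold of 0.01 and transcript length; limma-voom was added after seeing the data. A list of other basement membrane genes, added with values in view, is not reported here.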

Additional observations from a re-analysis of the deposited data

How the results depend on the processing

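Calls were scarce and depended on the libraries: over all genes tested the 103 calls became 171 with upper-quartile scaling, 365 with the GC correction, 645 with the GC correction and the replicate block, 1124 with the replicate block, 198 with limma-voom, 7 at an adjusted p below 0.01, 0 with no filter and 0 with genes of a mean of at least 1 in 1 group (2739 and 2642 at an unadjusted p below 0.05), and 1 to 2158 with each library left out. A group of 1 library is assumed to vary like the other group. The collagen genes called, 0 in the report, were 1 (Col7a1) with upper-quartile scaling and limma-voom, 2 (Col7a1 and Col8a1) with the GC correction, 2 with the replicate block and 2 with both, and 0 to 2 with each library left out. Synthesis and processing genes had 0 calls, 2 with the replicate block and 0 to 5 with each library left out. Receptor and degradation genes had 2 calls, 0 with no filter, 0 with the lower minimum, 0 at an adjusted p below 0.01 and 0 to 3 with each library left out. The cause of these changes was not tested. The replicate numbers are not stated to pair the cultures. The differences between replicate 1 and 2 correlated with r = 0.126 across 13479 genes, which are not independent. With the GC correction, alone or with the replicate block, the log2 fold change turned to 0.0287 for Col4a1, 0.0308 for Col18a1, 0.0118 for Col4a2, 0.0349 for Col5a1, 0.0189 for Col16a1, 0.0564 for Col6a1, 0.0529 for Col4a5, 0.0646 for Col5a3 and 0.0916 for Col6a3. Col6a2 turned to -0.0403 with upper-quartile scaling and -0.0183 with limma-voom. Leaving out each library also turned the sign for Col6a2 (-0.34 to 0.36), Col5a3 (-0.31 to 0.18), Col24a1 (-0.98 to 0.14), Col20a1 (-0.0234 to 0.70) and Col6a3 (-0.16 to 0.0811). By the longest transcript in place of the union of exons, Col4a2 stood at 71.4% and Col4a5 at 15.6% of Col4a1, and Col6a2 at 1.68% of Col6a1. The planned edgeR and DESeq2 fits need raw counts. They were not run because raw counts were not recovered from the normalized values. For members with means of 10 to 1000, counting depth limits what can be seen.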
